A study of Mus musculus with 48 samples.

Results

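The insulin-like growth factor (IGF) axis of mouse liver was described by 7 genes, namely the hormone Igf1, the growth hormone receptor Ghr, the acid-labile subunit Igfals and the binding proteins Igfbp1, Igfbp2, Igfbp3 and Igfbp4. Every non-control probe that the array annotation assigned to one of these symbols was taken, without regard to its values. This gave 14 probes, of which 13 were well above background on all 48 arrays, and the 7 genes were among 20486 measured genes of 37074 gene names on the array. The remaining probe, an additional one for Igfbp3, passed the background threshold on 0 arrays and has no level here. A gene was read by its brightest probe, and its other probes are given beside it.

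Whole-liver RNA of male mice was hybridised to 48 one-colour Agilent arrays, 6 in each of 8 groups. Mice lacking the phosphoinositide 3-kinase subunit p110α in hepatocytes (p110α hep-/-, albumin-Cre+/- and p110α flox/flox) were compared with their littermates without Cre (p110α hep+/+), which also carry the floxed alleles. Cre is driven by the albumin promoter, which is active in hepatocytes, and whether other liver cells of p110α hep-/- mice keep the gene was not tested. From 12 weeks of age, mice of each genotype received a control diet (CTRL) or a high-fat diet (HFD) with 60% of its calories from fat for 12 weeks. In each genotype and diet, 1 group was fed ad libitum and 1 group was fasted for 24 h, and all livers were taken at zeitgeber time 16 h, during the dark phase. The comparisons ask what the hepatocyte deletion, the diet and the fast each did to the liver transcriptome, and whether the effect of one depended on the other.

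The liver makes most of the IGF-1 in the circulation. Growth hormone, acting through its receptor, the kinase JAK2 and the transcription factor STAT5, induces Igf1 and Igfals in hepatocytes. In plasma, most IGF-1 travels in a complex with IGFBP-3 and the acid-labile subunit, which keeps it in the circulation, and smaller amounts are bound by IGFBP-1, IGFBP-2 and IGFBP-4. Insulin represses hepatic Igfbp1 through the phosphoinositide 3-kinase and AKT pathway, which keeps the transcription factor FOXO1 out of the nucleus. Igfbp1 therefore rises with fasting and in insulin deficiency, and p110α is one of the catalytic subunits that act downstream of the insulin receptor in hepatocytes.

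Between 50.1% and 57.4% of the probes were well above background on an array, and 0 spots were saturated. Each of the 6 slides carried 1 array of every group, and the slides were washed in 2 batches of 3 slides. The deleted gene gave no check of the genotype labels: the Pik3ca probe (chr3:32364747-32364806, mm9) was higher in fed p110α hep-/- than in fed p110α hep+/+ mice on CTRL (log2 fold change 0.39, SE 0.08) and on HFD (0.58, SE 0.08), with differences of 0.08 and 0.25 in fasted mice, and whether it lies in the deleted part of the transcript was not determined. The 5 hepatocyte markers (Alb, Apoa1, Ttr, Tat and Cps1) were well above background on all arrays. The log2 of their summed signal ranged from 19.68 to 19.90 over the 8 groups. Alb, at the top of the normalized scale (18.82 to 18.95), weighs heavily in this sum, which can hide changes of single markers. Cps1, a urea cycle enzyme, was called higher in p110α hep-/- mice when fed on CTRL (log2 fold change 0.68), fed on HFD (1.36) and fasted on HFD (1.1), and lower with HFD in fed p110α hep+/+ mice (-0.82). Tat was called higher with the deletion in fed mice on CTRL (0.73) and with fasting in 3 of 4 comparisons (0.60 to 0.88). For the 4 bile duct markers, the log2 of the summed signal ranged from 8.69 to 9.94 in the p110α hep-/- groups. In the p110α hep+/+ groups it ranged from 10.32 to 12.35. Such a sum follows its brightest markers most. Spp1 was called lower in 4 of the 4 genotype comparisons, while Krt7 and Epcam were above background on 28 and 18 arrays. Both neutrophil markers (S100a8 and S100a9) were called higher with HFD in fed and in fasted p110α hep+/+ mice. The log2 of their summed signal ranged from 8.26 to 9.89 in p110α hep+/+ mice on CTRL and from 9.47 to 11.89 on HFD. The part of these cell types in the results below was not tested, and in whole liver fewer cells of a type and less RNA per cell cannot be told apart.

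A gene was called when the limma adjusted p was at most 0.05 and the fold change was above 1.5. Igfbp1 and Igfbp2 were the members that moved most, and Igfals was the third member with a call. Of the 7 members, 2 were called between the genotypes in fed mice on CTRL (both higher; 3.72% of all genes tested were called in that comparison), 2 in fasted mice on CTRL (both higher; 3.24% of all genes), 2 in fed mice on HFD (both higher; 6.24%) and 2 in fasted mice on HFD (both higher; 6.54%). With HFD, 3 members were called in fed p110α hep+/+ mice (1 higher and 2 lower; 3.76% of all genes) and 1 in fasted p110α hep+/+ mice (lower; 2.81%). In p110α hep-/- mice, 0 members were called with HFD, either fed (2.32% of all genes; limma unadjusted p at most 0.05 for 2 members) or fasted (1.89%; unadjusted p at most 0.05 for 1 member). With fasting, 2 members were called in p110α hep+/+ mice on CTRL (5.45% of all genes), 2 in p110α hep-/- mice on CTRL (7.07%), 2 in p110α hep+/+ mice on HFD (4.71%) and 1 in p110α hep-/- mice on HFD (5.9%), all of them higher. Over the 7 members, the median log2 fold change lay between -0.19 and 0.35 in these 12 comparisons, beside -0.02 to 0.03 over all genes tested. The median hides members that moved in opposite directions. Some members had an adjusted p of at most 0.05 with a smaller fold. On the adjusted p alone, up to 5 of 7 members passed, with HFD in fed p110α hep+/+ mice. These include the 3 called there, and 4927 of all 20486 genes passed in that comparison.

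**Figure D1:**
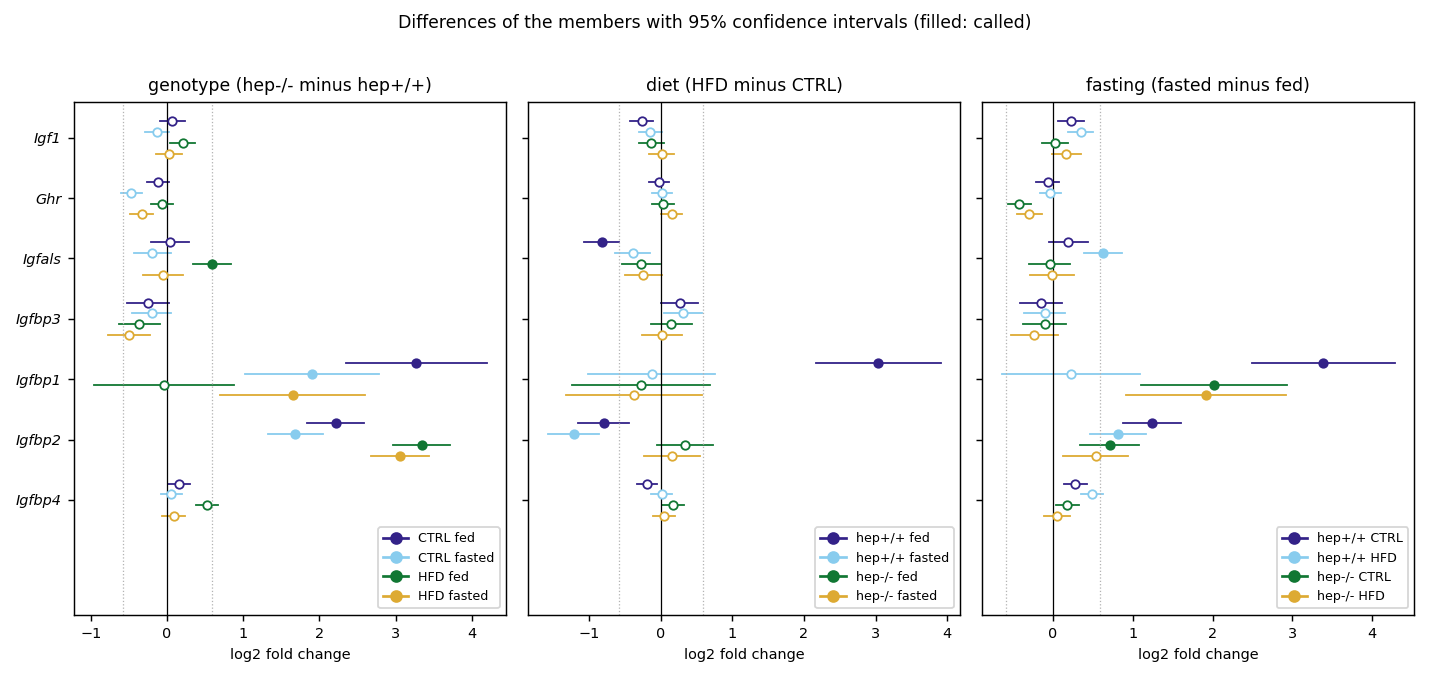
Log2 fold change (horizontal axis) of the brightest probe of each member (rows) for the effects of genotype, diet and fasting, with 95% confidence intervals from the limma fit; filled points were called, open points were not, and dotted lines mark a 1.5-fold change. Igfbp1 and Igfbp2 reach log2 fold changes above 3, whereas the points of Igf1, Ghr, Igfbp3 and Igfbp4 stay inside the dotted lines in all 12 comparisons.

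Igf1 encodes the ligand itself. Its brightest probe (chr10:87393516-87393575, mm9) was called in none of the 18 comparisons and interactions. The mean log2 signal was highest in fasted p110α hep+/+ mice on CTRL (15.97 ± 0.20, SD, n = 6 here and for every group below), followed by fasted p110α hep-/- mice on HFD (15.86 ± 0.09), fasted p110α hep-/- mice on CTRL (15.85 ± 0.11), fasted p110α hep+/+ mice on HFD (15.84 ± 0.12), fed p110α hep-/- mice on CTRL (15.81 ± 0.13), fed p110α hep+/+ mice on CTRL (15.77 ± 0.15), fed p110α hep-/- mice on HFD (15.72 ± 0.18) and fed p110α hep+/+ mice on HFD (15.51 ± 0.17). Only the last step of this order was larger than the larger SD of the neighbouring groups. In fed p110α hep+/+ mice, Igf1 was lower on HFD than on CTRL by a log2 fold change of -0.27 (SE 0.08, limma adjusted p = 0.011), and on HFD it was higher after fasting by 0.35 (SE 0.08, adjusted p = 0.00056). The arrays of this last pair did not overlap (15.30 to 15.70 fed against 15.73 to 16.01 fasted), and the difference had the same sign on 6 of 6 slides, but both differences stayed short of the 1.5-fold threshold. Between the genotypes, the 95% confidence interval of the Igf1 difference was 0.04 to 0.37 in fed mice on HFD, where the difference was largest (0.20, adjusted p = 0.055). The other 2 Igf1 probes correlated with the brightest probe at r = 0.35 and 0.39 over the 48 arrays, and were called in no comparison.

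Ghr encodes the growth hormone receptor, and a shorter transcript of the same gene encodes the soluble growth hormone binding protein of rodents. The brightest of its 4 probes (chr15:3277543-3277602, mm9) was designed on this shorter transcript. In fed mice its log2 signal ran from 14.39 over a median of 14.52 to 14.64 in p110α hep+/+ and from 14.22 over 14.43 to 14.46 in p110α hep-/- mice on CTRL, and from 14.41 over 14.47 to 14.64 and from 14.07 over 14.40 to 14.57, respectively, on HFD. After fasting it ran from 14.30 over 14.48 to 14.57 in p110α hep+/+ and from 13.43 over 14.05 to 14.13 in p110α hep-/- mice on CTRL. On HFD the fasted groups ran from 14.37 over 14.41 to 14.57 and from 14.07 over 14.12 to 14.22. The fasted p110α hep-/- arrays thus lay below all fasted p110α hep+/+ arrays on both diets, whereas the fed arrays of the genotypes overlapped. Ordered by mean, the 4 p110α hep+/+ groups (14.45 to 14.52) came first, then fed p110α hep-/- mice on both diets (14.39), and the step down to p110α hep-/- mice after fasting (14.13 with HFD, 13.92 with CTRL) was the only one larger than the spread.

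The genotype difference of Ghr in fasted mice was -0.47 on CTRL (SE 0.07, limma adjusted p = 1.2e-06) and -0.33 on HFD (SE 0.07, adjusted p = 0.00039), with the same sign on 6 of 6 slides each. After fasting, the signal of p110α hep-/- mice differed by a log2 fold change of -0.42 on CTRL (SE 0.07, adjusted p = 6e-06) and -0.30 on HFD (SE 0.08, adjusted p = 0.003). In p110α hep+/+ mice the fasting difference was -0.07 on CTRL (SE 0.07, adjusted p = 0.49). None of these differences passed the 1.5-fold threshold, so none is among the calls. The genotype by fasting interaction was -0.35 on CTRL (SE 0.10, adjusted p = 0.032) and -0.27 on HFD (SE 0.10, adjusted p = 0.15).

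The probe of the full-length receptor transcript (chr15:3268107-3268166, mm9) correlated with the brightest probe at r = 0.86 over the 48 arrays. It was lower in fasted p110α hep-/- than in fasted p110α hep+/+ mice by -0.40 on CTRL (SE 0.07, limma adjusted p = 8.2e-05) and by -0.37 on HFD (SE 0.08, adjusted p = 0.00034), and its genotype by fasting interaction was -0.37 on CTRL (adjusted p = 0.039) and -0.39 on HFD (adjusted p = 0.041). A second probe that the annotation places on the shorter transcript (chr15:3283509-3290961, mm9) had r = 0.84 with the brightest one. Whether it also reads the full-length transcript was not determined. Its genotype difference in fasted mice was -0.44 on CTRL (SE 0.07, adjusted p = 3.1e-06) and -0.21 on HFD (SE 0.07, adjusted p = 0.018). The last probe, placed by the annotation on a separate Ensembl transcript of Ghr, had r = 0.57. It was the one Ghr probe with calls, lower after fasting in p110α hep-/- mice by -0.93 on CTRL (SE 0.16, adjusted p = 1.8e-05) and by -1.0 on HFD (SE 0.18, adjusted p = 4.1e-05). Its genotype by fasting interaction on HFD was called too (-0.92, SE 0.24, adjusted p = 0.023), and in fed mice on HFD it was higher in p110α hep-/- mice by 0.51 (SE 0.17, adjusted p = 0.017), short of the fold threshold. Between the fasted genotypes this probe differed by -0.43 on CTRL (adjusted p = 0.046) and by -0.41 on HFD (adjusted p = 0.060), so that all 4 probes had the same sign there.

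**Figure D2:**
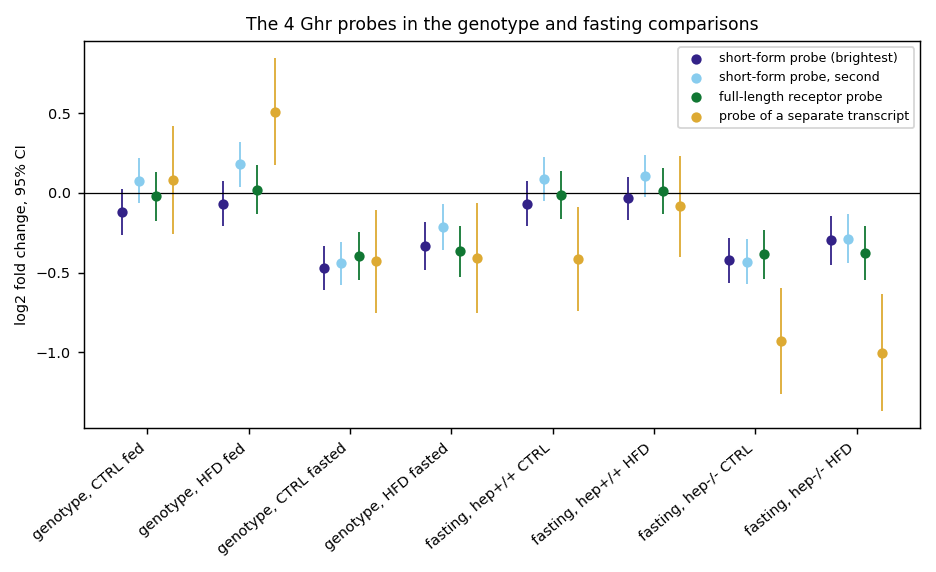
Log2 fold change (vertical axis, bars are 95% confidence intervals) of the 4 Ghr probes in the 4 genotype comparisons (hep-/- minus hep+/+) and the 4 fasting comparisons (fasted minus fed). Probes are named by the transcript given in the array annotation, and whether they read other forms was not determined. In fasted mice and in the fasting comparisons of p110α hep-/- mice all 4 probes lie below 0, from -0.21 to -1.0.

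Igfals encodes the acid-labile subunit, the partner that locks IGF-1 and IGFBP-3 into the large circulating complex. Its single probe lies at chr17:25018251-25018310 (mm9). In fed p110α hep+/+ mice its log2 signal ran from 10.17 over a median of 10.64 to 10.84 on CTRL and from 9.25 over 9.77 to 10.02 on HFD, without overlap. In fed p110α hep-/- mice it ran from 10.46 over 10.59 to 10.73 on CTRL and from 9.98 over 10.33 to 10.62 on HFD. Fed p110α hep+/+ mice on HFD therefore stood alone at the low end, and the step from them to the next group, fed p110α hep-/- mice on HFD, was larger than the spread (means 9.73 ± 0.26 and 10.31 ± 0.26). The fasted groups ran from 10.54 over 10.78 to 10.92 in p110α hep+/+ and from 9.90 over 10.57 to 10.87 in p110α hep-/- mice on CTRL. On HFD they ran from 10.09 over 10.35 to 10.68 and from 10.16 over 10.35 to 10.48. Ordered by mean, fasted p110α hep+/+ mice on CTRL were highest (10.75 ± 0.14), a step above the next group that exceeded the spread, and the 6 groups between the highest and the lowest (10.31 to 10.60) followed each other within it.

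HFD lowered Igfals in fed p110α hep+/+ mice 1.78-fold (log2 fold change -0.83, SE 0.12, limma adjusted p = 1.7e-06), on 6 of 6 slides. The difference was -1.08 within the first washing batch and -0.61 within the second, and the neutrophil markers were higher in the same comparison (S100a8 by 0.84 and S100a9 by 0.91 on the log2 scale). In fasted p110α hep+/+ mice the mean log2 signal of Igfals was 10.75 on CTRL and 10.35 on HFD. The means of fasted p110α hep-/- mice were 10.50 and 10.33, and neither diet difference in fasted mice was called. In fed p110α hep-/- mice the diet difference was -0.28 (95% confidence interval -0.55 to -0.01, adjusted p = 0.18), and the genotype by diet interaction in fed mice was 0.55 (SE 0.18, adjusted p = 0.083). It reached the call, at 0.60 to 0.65, without replicate 4 or 5 of fed p110α hep-/- mice on HFD, replicate 3 of fed p110α hep+/+ mice on HFD or replicate 1 of fed p110α hep+/+ mice on CTRL. Fasting raised Igfals in p110α hep+/+ mice on HFD 1.55-fold (0.63, SE 0.12, adjusted p = 5.7e-05), without overlap of the arrays. This call was lost, at 0.54 to 0.58, without replicate 2 or 3 of the fasted or replicate 1 of the fed group. The fasting difference was -0.01 in p110α hep-/- mice on HFD on the log2 scale (95% confidence interval -0.28 to 0.27). The genotype by fasting interaction on HFD was called (-0.64, SE 0.18, adjusted p = 0.039), and it lay between -0.74 and -0.53 when each of the 48 arrays was left out in turn. The call was lost without any 1 of 11 arrays, which were replicates 1, 2 and 6 of fed p110α hep-/-, 1, 2 and 3 of fasted p110α hep-/-, 1, 2 and 6 of fed p110α hep+/+ and 2 and 3 of fasted p110α hep+/+ mice on HFD. It was also lost on the adjusted p with the scanner's processed signal, with median scaling, without the filter on dim probes, without washing batch correction and without array weights (-0.64 to -0.60, adjusted p from 0.052 to 0.093), and within each washing batch (-0.54 and -0.72).

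In fed mice on HFD, Igfals was higher in p110α hep-/- than in p110α hep+/+ mice by 0.59 (SE 0.13, limma adjusted p = 0.00032), which lies just above the fold threshold. The call was lost, with a log2 fold change between 0.48 and 0.58, after leaving out replicate 1, 2 or 6 of the p110α hep-/- group, replicate 1 or 6 of the p110α hep+/+ group, replicate 2 of fed p110α hep+/+ mice on CTRL or replicate 2 of fasted p110α hep+/+ mice on CTRL. The call was also lost, at 0.58 each and short of the fold threshold, with median scaling, without washing batch correction, with slide as a fixed block and without array weights (adjusted p from 0.00036 to 0.00073), and within the first washing batch (0.44, adjusted p = 0.083). The direction was the same on 6 of 6 slides, and the arrays overlapped.

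One promoter window of Igfals is shown because its textbook regulator, STAT5, binds palindromes of the form TTCNNNGAA. RefSeq (GRCm38.p6) lists 3 start sites with windows of 300 bases (250 before the start site and 50 from it on), and both the first and the second hold 1 such match, whereas 8.3% of all 32851 windows of the same length hold at least 1. The third Igfals window and the Igf1 window hold 0. The second window (chr17:24877981-24878280, plus strand, GRCm38.p6) is printed, as it has the match nearer to its start site, from position -58 to -50, while that of the first lies from -236 to -228. The second window also holds a match to the forkhead core GTAAACA on the opposite strand, which 3.65% of all windows hold on either strand. Capitals mark the matches, and the sequence reads 5′ to 3′.
Igfals: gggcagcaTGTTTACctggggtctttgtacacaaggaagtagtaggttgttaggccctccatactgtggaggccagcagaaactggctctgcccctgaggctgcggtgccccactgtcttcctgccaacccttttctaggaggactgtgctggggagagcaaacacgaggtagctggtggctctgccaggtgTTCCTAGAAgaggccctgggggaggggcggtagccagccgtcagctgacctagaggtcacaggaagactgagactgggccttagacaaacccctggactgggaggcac

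Igfbp3, the main carrier of IGF-1 in plasma, is made in liver largely outside hepatocytes, in endothelial and other non-parenchymal cells. Its brightest probe (chr11:7106193-7106252, mm9) was called in none of the 18 comparisons and interactions. The 8 group means lay between 10.98 ± 0.17 (fasted p110α hep-/- mice on CTRL) and 11.61 ± 0.18 (fed p110α hep+/+ mice on HFD), and no step between neighbours in their order exceeded the spread. Between the genotypes, Igfbp3 was lower in p110α hep-/- mice on HFD by -0.37 when fed (SE 0.13, limma adjusted p = 0.034) and by -0.50 when fasted (SE 0.14, adjusted p = 0.0042). On CTRL the differences were -0.25 fed (adjusted p = 0.19) and -0.20 fasted (adjusted p = 0.27). The arrays of the genotypes overlapped in all 4 pairs. For the 5 endothelial markers, the log2 of the summed signal was 13.40 to 14.14 in the p110α hep+/+ groups. In the p110α hep-/- groups it was 13.90 to 14.26. Single endothelial markers moved both ways: Lyve1 was called lower in p110α hep-/- mice when fed on CTRL (-1.13) and on HFD (-0.82), and Clec4g was called higher in fasted mice on HFD (0.68). Of the 5 stellate cell markers, Rgs5 was called higher in p110α hep-/- mice when fed on CTRL (0.61), fed on HFD (0.61) and fasted on HFD (1.1), and Lrat was called lower when fed on CTRL (-0.65). Within the washing batches, the difference in fed mice on HFD was -0.63 and -0.10. The difference in fasted mice on HFD reached the call without replicate 4 of the p110α hep-/- group (-0.59) or replicate 5 of the p110α hep+/+ group (-0.60).

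**Figure D3:**
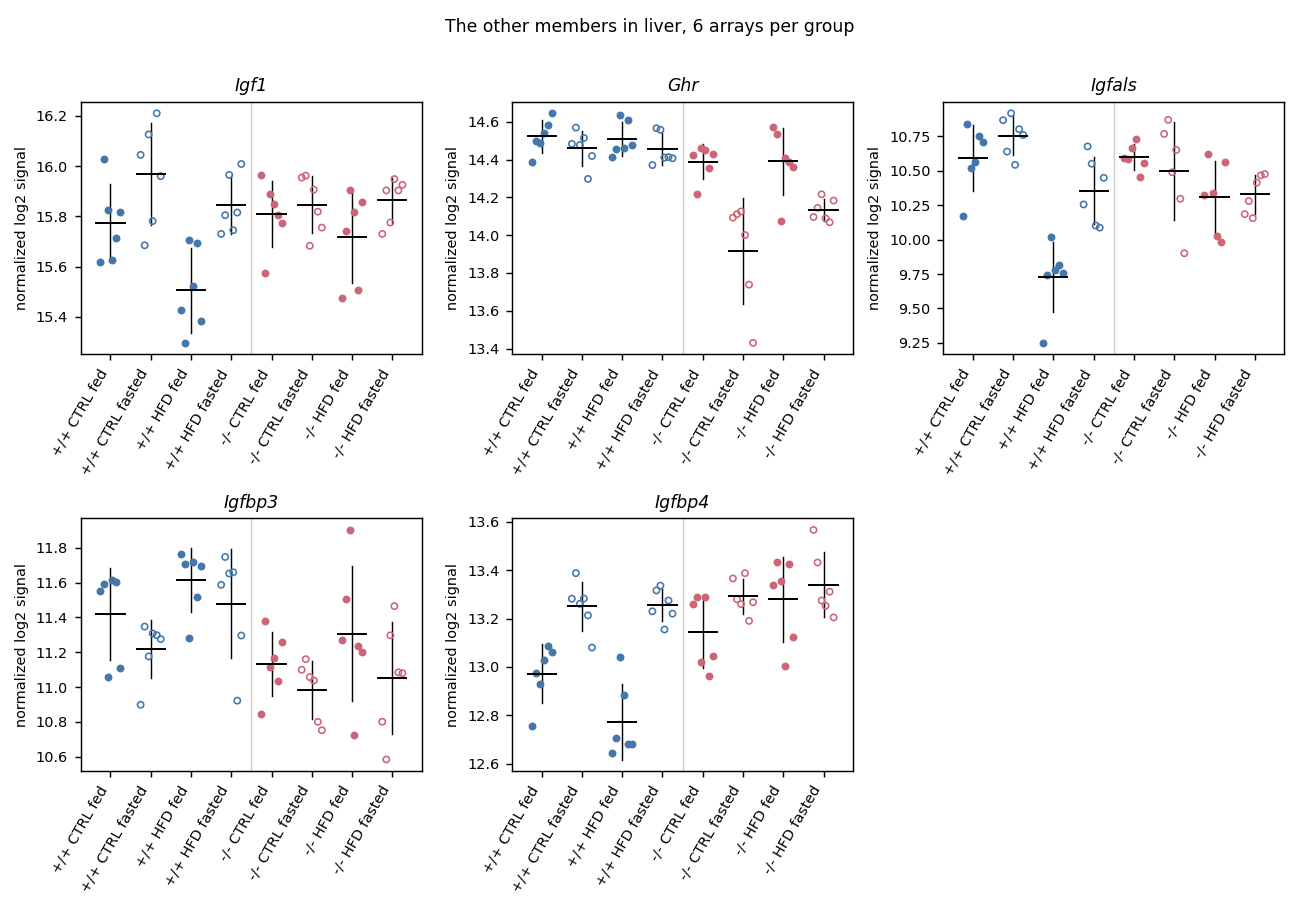
Normalized log2 signal (vertical axes, which differ between panels and do not start at 0) of the brightest probes of Igf1, Ghr, Igfals, Igfbp3 and Igfbp4 in the 8 groups. Each circle is 1 array (blue p110α hep+/+, red p110α hep-/-, filled fed, open fasted), horizontal bars are means and vertical lines are 1 SD; Ghr is lowest in the fasted p110α hep-/- groups, and Igfals is lowest in fed p110α hep+/+ mice on HFD.

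Igfbp1 encodes the acutely regulated binding protein of the axis, which hepatocytes secrete when insulin is low. Its promoter window is shown because it carries the insulin response element core CAAAACA from position -108 to -102 relative to the start site (chr11:7197537-7197836, plus strand, GRCm38.p6). Of all 32851 windows, 6.28% hold this core on either strand, and of the 7 members Igfbp1 was the one with a match. The window of the first Igfbp2 start site (chr1:72824230-72824529, plus strand, GRCm38.p6) is printed beside it, since both genes were called higher with the deletion in 3 of the 4 genotype comparisons (Igfbp2 in all 4), and it holds none of the 3 motifs searched. Capitals mark the match.
Igfbp1: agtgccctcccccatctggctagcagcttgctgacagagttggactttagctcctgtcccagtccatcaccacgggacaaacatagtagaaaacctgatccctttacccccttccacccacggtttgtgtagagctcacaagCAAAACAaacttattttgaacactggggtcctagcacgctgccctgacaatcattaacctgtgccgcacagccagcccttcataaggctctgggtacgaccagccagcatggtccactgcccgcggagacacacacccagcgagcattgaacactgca
Igfbp2: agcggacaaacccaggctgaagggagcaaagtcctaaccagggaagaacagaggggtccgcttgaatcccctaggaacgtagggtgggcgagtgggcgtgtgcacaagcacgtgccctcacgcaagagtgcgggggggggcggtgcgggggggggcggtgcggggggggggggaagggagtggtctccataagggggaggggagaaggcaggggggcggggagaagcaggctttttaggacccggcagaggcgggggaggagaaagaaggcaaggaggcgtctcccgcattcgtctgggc

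The Igfbp1 probe (chr11:7102442-7102501, mm9) gave its lowest and its most scattered values in fed p110α hep+/+ mice on CTRL, where the log2 signal ran from 9.46 over a median of 11.21 to 13.93. In fed p110α hep-/- mice on CTRL it ran from 13.32 over 14.42 to 15.18, so that a single p110α hep+/+ array (replicate 2, at 13.93) reached into the p110α hep-/- range. On HFD the fed groups ran from 12.61 over 14.20 to 15.07 in p110α hep+/+ and from 12.52 over 14.16 to 15.55 in p110α hep-/- mice, and overlapped almost completely. After fasting on CTRL the signal ran from 14.30 over 14.62 to 14.86 in p110α hep+/+ and from 16.09 over 16.43 to 16.86 in p110α hep-/- mice, without overlap. After fasting on HFD it ran from 13.87 over 14.28 to 14.98 and from 15.02 over 16.26 to 16.46, again without overlap. Ordered by mean, fasted p110α hep-/- livers on CTRL (16.44 ± 0.28) and on HFD (16.04 ± 0.56) were highest, 5 groups followed within their spread (14.58 to 14.05), and fed p110α hep+/+ mice on CTRL were lowest (11.33 ± 1.69); the steps above and below the 5 groups exceeded the spread.

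The deletion raised Igfbp1 9.68-fold in fed mice on CTRL (log2 fold change 3.27, SE 0.46, limma adjusted p = 8.5e-07), 3.74-fold in fasted mice on CTRL (1.90, SE 0.44, adjusted p = 0.0011) and 3.13-fold in fasted mice on HFD (1.65, SE 0.47, adjusted p = 0.0053). Each of these differences had the same sign on 6 of 6 slides. In fed mice on HFD the genotypes differed by -0.04, with a 95% confidence interval of -0.96 to 0.88 (adjusted p = 0.96) and 3 of 6 slides on either side. The fit weights arrays, and without weights the difference was 0.23, as in the plain group means (14.28 and 14.05). Within the washing batches it was 1.09 and -0.79, so no direction can be given. The genotype by diet interaction in fed mice was called at -3.32 (SE 0.65, adjusted p = 0.0023), and 2 members (1 higher and 1 lower) were called in this interaction beside 1.34% of all genes. Within the washing batches this interaction was -2.73 and -4.03.

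HFD raised Igfbp1 8.20-fold in fed p110α hep+/+ mice (3.04, SE 0.43, limma adjusted p = 1.4e-06). This group (14.05 ± 0.93) lay within the 5 middle groups of the order and below the fasted p110α hep-/- groups. The arrays overlapped through the same replicate 2 of the CTRL group, and without that array the difference was 3.34. In the remaining comparisons the diet difference had confidence intervals of -1.25 to 0.68 in fed p110α hep-/-, -1.01 to 0.76 in fasted p110α hep+/+ and -1.33 to 0.57 in fasted p110α hep-/- mice. Both neutrophil markers were called higher in the comparison of fed p110α hep+/+ mice too, and their part in the Igfbp1 difference was not tested.

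Fasting raised Igfbp1 10.5-fold in p110α hep+/+ mice on CTRL (3.39, SE 0.44, limma adjusted p = 8.3e-08), 4.04-fold in p110α hep-/- mice on CTRL (2.02, SE 0.45, adjusted p = 0.00045) and 3.78-fold in p110α hep-/- mice on HFD (1.92, SE 0.50, adjusted p = 0.003). The last of these was 1.33 without replicate 2 of fed p110α hep-/- mice on HFD, and 1.09 and 2.51 within the washing batches. In p110α hep+/+ mice on HFD the fasting difference was 0.23 (95% confidence interval -0.64 to 1.09, adjusted p = 0.75). The diet by fasting interaction of p110α hep+/+ mice was called for 1 member, Igfbp1, at -3.16 (SE 0.62, adjusted p = 0.0028; 0.893% of all genes were called there), and that of p110α hep-/- mice was -0.10 (SE 0.67, adjusted p = 0.96). In the latter interaction 0 members were called, and 0 had an unadjusted p at most 0.05 (2.88% of all genes were called). The genotype by fasting interaction of Igfbp1 was -1.37 on CTRL (SE 0.63, adjusted p = 0.24) and 1.69 on HFD (SE 0.66, adjusted p = 0.16). Igfbp1 thus had 1 low group, fed p110α hep+/+ mice on CTRL, and each of deletion, HFD and fasting was associated with a higher level when it was set against that group.

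Igfbp2 encodes a binding protein that hepatocytes also secrete, and it gave the smallest adjusted p of the 7 members. Its single probe lies at chr1:72898677-72898736 (mm9). In fed mice its log2 signal ran from 12.82 over a median of 13.19 to 13.65 in p110α hep+/+ and from 15.12 over 15.34 to 15.74 in p110α hep-/- mice on CTRL. On HFD the fed groups ran from 11.42 over 12.39 to 12.62 and from 15.49 over 15.56 to 16.15. After fasting on CTRL it ran from 14.07 over 14.29 to 14.76 in p110α hep+/+ and from 15.81 over 16.02 to 16.59 in p110α hep-/- mice. After fasting on HFD the values ran from 12.70 over 13.07 to 14.22 and from 15.77 over 16.26 to 16.58. All 24 p110α hep-/- arrays thus lay above all 24 p110α hep+/+ arrays, across diets and nutritional states. The share of all genes that separate as fully was not counted. Ordered by mean, fasted p110α hep-/- groups on HFD (16.21 ± 0.29) and on CTRL (16.12 ± 0.31) did not differ beyond their spread, nor did fasted p110α hep+/+ mice on HFD (13.27 ± 0.58) and fed p110α hep+/+ mice on CTRL (13.20 ± 0.31). Every other step of the order, down to fed p110α hep+/+ mice on HFD (12.27 ± 0.43), exceeded the spread.

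The deletion raised Igfbp2 4.64-fold in fed mice on CTRL (log2 fold change 2.21, SE 0.19, limma adjusted p = 4.9e-12), 3.21-fold in fasted mice on CTRL (1.68, SE 0.18, adjusted p = 1.6e-09), 10.2-fold in fed mice on HFD (3.34, SE 0.19, adjusted p = 6.3e-18) and 8.33-fold in fasted mice on HFD (3.06, SE 0.19, adjusted p = 2e-16). All 4 differences had the same sign on 6 of 6 slides, and within the washing batches they ranged from 1.60 to 3.43. Of the 4 bile duct markers, Krt7 and Epcam were above background on only 28 and 18 of the 48 arrays. In the same 4 genotype comparisons the median log2 fold change of the 4 markers lay from -0.70 to -0.37. Of these markers, 1 was called lower in fed mice on CTRL and 2 in each of the other comparisons. Both neutrophil markers were called lower in p110α hep-/- mice in the comparison of fasted mice on HFD (median -1.41), in which Igfbp1 and Igfbp2 were called higher, and in the genotype by diet interaction of fasted mice (median -1.46). The genotype by diet interaction was called in fed mice at 1.13 (SE 0.26, adjusted p = 0.013) and in fasted mice at 1.38 (SE 0.26, adjusted p = 0.0016), where it was the 1 interaction called among the members (1.85% of all genes were called). HFD lowered Igfbp2 in p110α hep+/+ mice 1.74-fold when fed (-0.80, SE 0.18, adjusted p = 0.00083) and 2.33-fold when fasted (-1.22, SE 0.18, adjusted p = 5.9e-06). In p110α hep-/- mice the diet differences were 0.33 when fed (95% confidence interval -0.06 to 0.72) and 0.16 when fasted (-0.23 to 0.54). With HFD, 1 of the 4 bile duct markers was called higher in fed and in fasted p110α hep+/+ mice, and 0 in p110α hep-/- mice.

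Fasting raised Igfbp2 2.37-fold in p110α hep+/+ mice on CTRL (1.24, SE 0.18, limma adjusted p = 6.1e-07), 1.64-fold in p110α hep-/- mice on CTRL (0.71, SE 0.18, adjusted p = 0.002) and 1.77-fold in p110α hep+/+ mice on HFD (0.82, SE 0.17, adjusted p = 0.00032). In p110α hep-/- mice on HFD the difference was 0.54 (SE 0.20, adjusted p = 0.043), short of the fold threshold, which it passed without replicate 4 of the fasted (0.62) or replicate 6 of the fed group (0.64). Krt7 and Epcam, above background on only 28 and 18 of the 48 arrays, limit the bile duct values here too. Of the 4 bile duct markers, 2 were called lower with fasting in p110α hep-/- mice on CTRL (median log2 fold change -0.57). On HFD 1 was called lower in p110α hep-/- mice, and 0 were called with fasting in p110α hep+/+ mice on either diet. No interaction with fasting was called for Igfbp2 (adjusted p from 0.26 to 0.77). In the genotype by fasting interaction, 0 members were called on CTRL (1.31% of all genes; unadjusted p at most 0.05 for 3 members) and 1 on HFD, Igfals (1.37% of all genes). Igfbp1 and Igfbp2 therefore shared their direction with the deletion and with fasting in the comparisons called for both, and moved in opposite directions with HFD in fed p110α hep+/+ mice.

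**Figure D4:**
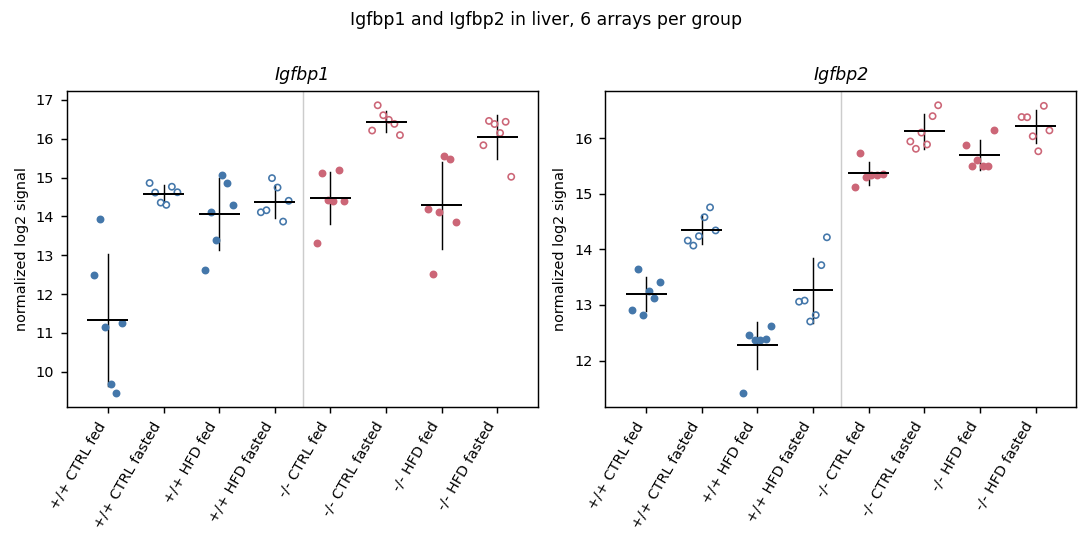
Normalized log2 signal (vertical axes, which differ between the panels and do not start at 0) of Igfbp1 and Igfbp2 in the 8 groups, with 1 circle per array (blue p110α hep+/+, red p110α hep-/-, filled fed, open fasted), the mean as a horizontal bar and 1 SD as a vertical line. Igfbp1 is low in fed p110α hep+/+ mice on CTRL alone, whereas every p110α hep-/- array of Igfbp2 lies above every p110α hep+/+ array.

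Igfbp4 encodes a binding protein that holds IGF-1 until the protease PAPP-A cleaves it. Its brightest probe (chr11:98913334-98913393, mm9) was called in none of the 18 comparisons and interactions, and its second probe correlated with it at r = 0.91 over the 48 arrays. The group means ranged from 12.77 ± 0.16 in fed p110α hep+/+ mice on HFD to 13.34 ± 0.13 in fasted p110α hep-/- mice on HFD, and the lowest 2 steps of the order, at fed p110α hep+/+ mice on CTRL (12.97 ± 0.12) and on HFD, exceeded the spread. In fed mice on HFD, Igfbp4 was higher in p110α hep-/- mice by 0.52 (SE 0.07, limma adjusted p = 3.5e-07), a 1.44-fold difference. Fasting gave higher signals in p110α hep+/+ mice, by 0.28 on CTRL (SE 0.07, adjusted p = 0.0019) and by 0.49 on HFD (SE 0.07, adjusted p = 4.9e-07), and on HFD the 6 fasted and the 6 fed arrays did not overlap. In p110α hep-/- mice on HFD the fasting difference was 0.05 (SE 0.08), and the genotype by fasting interaction on HFD was -0.43 (SE 0.10, adjusted p = 0.013). Fed p110α hep+/+ mice on HFD came last in the order of groups for Igf1, Igfals, Igfbp2 and Igfbp4.

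Across the 48 arrays, which share the 8 groups and the same normalization, the highest correlation between members was that of Igf1 with Igfals (r = 0.71, and 0.52 after subtraction of the group means). Within groups, Igfals with Ghr was higher (0.56), whereas over all arrays that pair had r = 0.08. Igfbp2 correlated with Igfbp4 at r = 0.66 and with Igfbp1 at r = 0.59, but the values within groups were 0.05 and 0.15. Ghr ran against Igfbp2 (r = -0.66) and Igfbp1 (r = -0.61), with -0.28 and -0.08 within groups. The genes outside the 7 with the most similar pattern were Mcm10 (r = 0.76) and Kctd15 (r = 0.75) for Igf1, Tmem14c (0.88) and C1s2 (0.87) for Ghr, Serpina3h and Serpina3j (0.79 each) for Igfals, Col16a1 (0.83) and Matn2 (0.82) for Igfbp3, Slc38a2 (0.85) and the cDNA 5330406M23Rik (0.88) for Igfbp1, and Pcdh1 (0.85) and Aamp (0.84) for Igfbp4. For Igfbp2 they were the brightest Tango6 probe (r = 0.99) and an Ensembl transcript without a symbol (0.93). The other Tango6 probe, on the same transcript, had r = -0.25 with Igfbp2, so the first value may not describe the gene Tango6, and whether that probe also reads Igfbp2 RNA was not tested.

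The other genes of the pathway were taken from a list of 25 ligands, receptors, binding proteins, proteases and signalling proteins, 18 of which were measured above background. The ligand Igf2, the IGF binding protein-like Igfbpl1, the proteases Pappa and Pappa2, their inhibitors Stc1 and Stc2 and the mRNA-binding Igf2bp1 did not pass the filter on dim probes. Of the 18 measured genes, 3, 2, 2 and 2 were called between the genotypes in fed CTRL, fasted CTRL, fed HFD and fasted HFD mice, all higher in p110α hep-/- mice (3.72%, 3.24%, 6.24% and 6.54% of all genes were called there). With HFD, 1 was called in fed p110α hep+/+ mice (lower), and 0 in fed p110α hep-/-, fasted p110α hep+/+ and fasted p110α hep-/- mice (limma unadjusted p at most 0.05 for 4, 5 and 5 genes), beside 3.76%, 2.32%, 2.81% and 1.89% of all genes. With fasting, 3 were called in p110α hep+/+ mice on CTRL (all higher), 5 in p110α hep-/- mice on CTRL (3 higher and 2 lower), 4 in p110α hep+/+ mice on HFD (3 higher and 1 lower) and 1 in p110α hep-/- mice on HFD (higher), beside 5.45%, 7.07%, 4.71% and 5.9% of all genes. The median log2 fold change of the 18 genes ranged from -0.01 to 0.20 in the 12 comparisons. Among the 6 interactions, 1 of the 18 genes was called in each of 3: Stat5b in genotype by fasting on CTRL (-0.69, limma adjusted p = 0.0014) and Irs1 in diet by fasting in p110α hep+/+ (-0.82, adjusted p = 0.00054) and p110α hep-/- mice (-0.60, adjusted p = 0.0098), beside 1.31%, 0.893% and 2.88% of all genes. Stat5b and Irs1 were named because of these interaction calls, after their values were seen. The receptor genes Igf1r, Igf2r and Insr and the kinase Jak2 were called in none of the 12 comparisons.

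Irs2, the insulin receptor substrate that couples the insulin and IGF-1 receptors to phosphoinositide 3-kinase, had the most calls (7 of 12). It was higher in p110α hep-/- mice in all 4 genotype comparisons, by 1.92 (SE 0.27, limma adjusted p = 8.1e-07) in fed mice on CTRL and by 0.87 to 1.49 in the others. Fasting raised Irs2 in p110α hep+/+ mice by 1.94 on CTRL (SE 0.26, adjusted p = 1.3e-07) and by 0.98 on HFD (SE 0.25, adjusted p = 0.0026), and in p110α hep-/- mice by 0.89 on CTRL (SE 0.26, adjusted p = 0.007). In p110α hep-/- mice on HFD the fasting difference was 0.41 and was not called. The suppressor of cytokine signalling Socs3, which blunts growth hormone and cytokine signals, was called higher in p110α hep-/- mice in 3 of the 4 genotype comparisons (by 1.13 in fed and in fasted mice on CTRL and by more in fed mice on HFD). It was also called higher with fasting in p110α hep+/+ mice on CTRL (0.64) and on HFD (1.05) and in p110α hep-/- mice on CTRL (0.63). Socs2, a growth hormone-induced inhibitor of the receptor's own signal, was higher after fasting on HFD in p110α hep+/+ (1.86, SE 0.37, adjusted p = 0.00013) and p110α hep-/- mice (2.54, SE 0.43, adjusted p = 1.4e-05), in both without overlap of the arrays. It was further called higher with fasting in p110α hep-/- mice on CTRL (1.07, SE 0.39, adjusted p = 0.029) and with the deletion in fasted mice on HFD (1.63, SE 0.40, adjusted p = 0.0014). In fed p110α hep+/+ mice Socs2 was lower on HFD (-1.17, SE 0.37, adjusted p = 0.019), the comparison in which Igfals was lower too. The prolactin receptor gene Prlr was called higher with the deletion in fed mice on CTRL (0.64, SE 0.20) and with fasting in p110α hep+/+ mice on CTRL (0.82, SE 0.20).

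The binding protein genes Igfbp5 and Igfbp6 were each called once, lower after fasting in p110α hep-/- mice on CTRL (-0.96, SE 0.30, limma adjusted p = 0.011, and -2.01, SE 0.61, adjusted p = 0.0092). Igf2bp2, which falls outside the rule for named genes and was chosen after its values were seen, was the gene called lower after fasting in p110α hep+/+ mice on HFD (-0.74, SE 0.12, adjusted p = 8e-06).

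**Figure D5:**
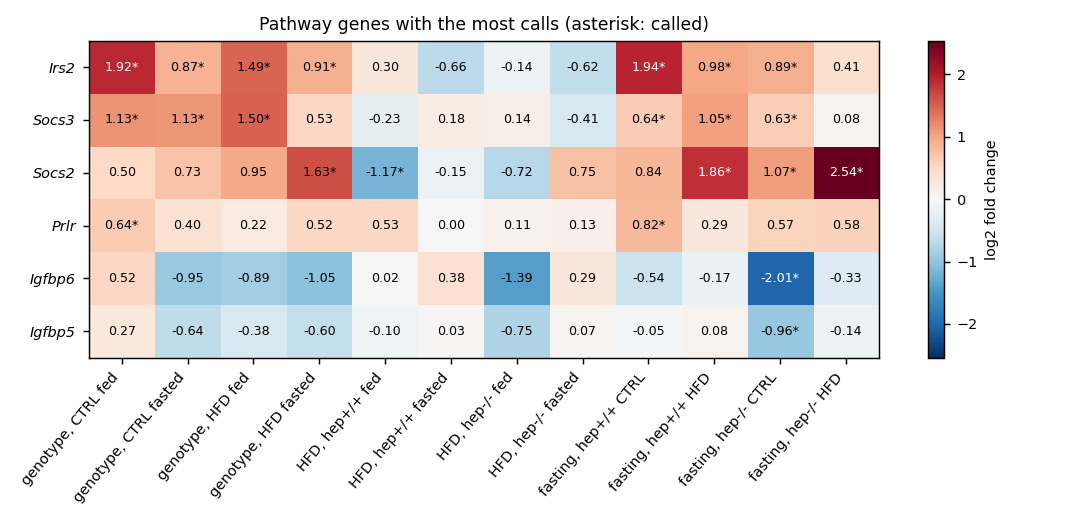
Log2 fold change (colour and printed value, rounded to 2 decimals) of the 6 pathway genes with the most calls (rows) in the 12 comparisons of genotype, diet and fasting (columns); an asterisk marks a call. Irs2 has 7 calls, all higher, whereas Igfbp5 and Igfbp6 have 1 each, lower after fasting in p110α hep-/- mice on CTRL.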

How the data were processed

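Liver RNA of 48 mouse samples was hybridised to 1-colour Agilent arrays with 62976 spots, and the authors deposited scanner files with linear intensity values (Agilent Feature Extraction 10.10.1.1). The authors also deposited a table of log2 values after quantile normalization, which was used as an alternative. Its scale was found by comparison (lowest correlation with the same array 0.999997, column medians 7.69), and it has no direction or centring.

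Here the log2 median intensity was used. Control spots were left out, outlier flags were set to missing and spots of a probe were averaged. Probes well above background on at least 5 of 6 arrays of a group were kept (30793). The washing batch was removed, arrays were quantile normalized and weighted, and 8 group means were fitted with limma 3.58.1 in R 4.3.3, and p-values were adjusted by Benjamini-Hochberg across the whole table. Calls needed an adjusted p no higher than 0.05 together with a change above 1.5-fold, and the brightest probe stood for its gene. Simulated data with known changes were used to test the fit. Where the labels do not name separate animals, p-values measure only the spread between these samples. Precision is limited by the number of arrays. Where arrays are said not to overlap, the share of all genes that separate in the same way was not counted.

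The named pathway genes are the 6 with the most calls, then the largest change. The members and lists were chosen with earlier results of these data known. Probe positions are mm9 as in the files, and promoter windows are RefSeq GRCm38.p6, with 11 windows for the 7 members and 32851 in all. The 3 motifs (forkhead core, insulin response element core and STAT5 palindrome, spelled out in the report) were searched on both strands, and a match is only a description. Exon and UTR annotation of the probes was not analysed here.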

Additional observations from a re-analysis of the deposited data

Results flagged for a closer look

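Among the 56 sets of 6 arrays (7 members in 8 groups), 3 held an array that stood apart by Dixon's criterion, which chance gives in about 1 in 20 sets. Replicate 1 of fed p110α hep+/+ mice on HFD was the lowest of its group for Igfals (9.25) and also for Igfbp2 (11.42). Replicate 2 of fed p110α hep-/- mice on CTRL was the highest of its group for Igfbp2 (15.74).

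For 5 effects the interaction itself passed both the adjusted p and the fold threshold (8 passed the adjusted p alone). The genotype effect on Igfbp1 in fed mice was lower on HFD than on CTRL by a log2 interaction of -3.32, and the fasting effect on Igfbp1 in p110α hep+/+ mice was lower on HFD by -3.16. The genotype effect on Igfbp2 was larger on HFD, by 1.13 in fed and by 1.38 in fasted mice. The fasting effect on Igfals on HFD was lower in p110α hep-/- mice by -0.64.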

How the results depend on the processing

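Of the 24 calls on the members, 12 held in every alternative that gave a value, 21 held when each of the 48 arrays was left out in turn, and 24 had the same sign in both washing batches. The counts of calls as reported were 8 for genotype, 4 for HFD, 7 for fasting and 5 for interactions. Within the first washing batch 0 interactions were called by limma (unadjusted p at most 0.05 for 12 of 42), and within the second batch there were 4 fasting calls and 2 interaction calls; these fits hold fewer samples. Without the fold threshold the counts were 13 for genotype, 7 for HFD, 14 for fasting and 8 for interactions. Of all 20486 genes, 4407 to 7542 passed the adjusted p alone per genotype comparison and 2220 to 4927 per HFD comparison. Per fasting comparison 5827 to 7260 genes did so, and per interaction 484 to 1618. Leaving out each array in turn gave 7 to 9, 4 to 4, 6 to 8 and 4 to 6 calls. With the replicate number as a block the counts were 8 for genotype, 4 for HFD, 8 for fasting (Igfbp2 in p110α hep-/- mice on HFD was added) and 5 for interactions. Samples with the same number in different groups had deviations correlated at a median r of 0.013 (-0.34 to 0.32 over 168 pairs). Arrays known to share a slide had a median r of 0.011 (-0.25 to 0.33). This measure therefore could not show whether same-numbered samples share more than a number. No call reversed its direction. Apart from single washing batches, the calls lost in any setting were all of Igfals: between the genotypes in fed mice on HFD, in its genotype by fasting interaction on HFD and, only when certain arrays were left out, with fasting in p110α hep+/+ mice on HFD. Leaving out each array in turn was chosen after seeing the data. Signal over background limits what is said of the Igfbp3 probe without a level and of Igf2, Pappa and the other dim genes.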

Other observations

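The brightest Tango6 probe followed Igfbp2 almost exactly over the 48 arrays (r = 0.993, and 0.93 after subtraction of the group means). Its genotype differences were 2.02 in fed and 1.91 in fasted mice on CTRL, and 3.04 and 3.09 on HFD. The other Tango6 probe, on the same RefSeq transcript, had r = -0.25 with Igfbp2 and genotype differences from -0.15 to 0.03, so the 2 probes disagree on this gene.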
